A study of Mus musculus with 20 samples.

Results

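At postnatal day 21 (P21), 16 of the 1497 genes in the table for that age were high in Nrl-/- retina and not raised in any of 3 Crx mutant genotypes. Those described by name are Calu, Smug1, Pnpla3, Gckr, Wdr31, Hopx, Trim17, Bspry, Mogat1, Tex28, Fabp4 and the globin genes Hba-a1, Hbb-bt and Hbb-b2. The 16 genes were chosen by their mean FPKM (fragments per kilobase of transcript, scaled to the mapped reads of the library, a level per length): at least 5 in Nrl-/- and at least 2 times that of wild type, and no more than 25% above wild type in each of the other 3 mutants. In all, 21 genes met these numbers, and 5 of them (Opn1sw, Opn1mw, Arr3, Pde6h and Kcne2) were set aside by name because they belong to the phototransduction, channel and carrier families. The 16 genes were thus selected on all 10 P21 samples, so every P21 value of theirs below is a description and tests nothing.

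The study sequenced RNA of whole retina of C57BL/6J mice at postnatal day 2 (P2) and P21 in 5 genotypes. The wild-type group carried no mutant allele, CrxRip/+ and CrxRip/Rip carried the dominant Rip allele of the homeobox gene Crx on 1 or both chromosomes, Crx-/- lacked Crx and Nrl-/- lacked Nrl. Each genotype had 2 samples at each age, each from 2 retinas, described by the submitters as independent retinas; whether the samples came from separate litters or days is not stated. P-values below measure the spread between these samples only.

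Nrl encodes the leucine zipper transcription factor that commits photoreceptor precursors to the rod fate, and precursors that lack it become cells resembling the short-wave cone. Crx encodes a homeodomain factor that rods and cones both need for their mature gene programmes. Retina without Nrl therefore has an excess of cone-like photoreceptors that still have Crx, whereas retina with a Crx mutation has photoreceptors that fail to mature. In bulk tissue, more cells of a type and more RNA per cell cannot be told apart, and this holds for every level below.

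The targeted gene was read first. Nrl was at 466.1 and 427.6 FPKM in the wild-type samples at P21 and at 0.2 in both Nrl-/- samples, and at P2 it was at 69.4 and 81.0 FPKM in wild type and at 0.1 in both Nrl-/- samples. At P21 it was at 0.9 and 0.4 FPKM in CrxRip/+, 0.1 and 0.2 in CrxRip/Rip, and 87.2 and 82.0 in Crx-/-. Both CrxRip genotypes were thus nearly without Nrl RNA at P21, and by the rule the 16 genes were not raised there. The summed FPKM of the P21 table ran from 21569.4 to 55335.3 over the samples, highest in wild type. Read depth is unknown, because FPKM keeps no counts. The tissue label was checked on the rod genes, whose 19 listed members summed to 20407.2 and 19221.4 FPKM in wild type and to 1938.7 and 1876.8 in Nrl-/-.

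In 15 of the 16 genes both Nrl-/- samples lay above all 8 other P21 samples, against 18.6% of all genes in the table, a count that the choice of genes largely fixes. Hba-a1 was the exception. The ratio of mean FPKM in Nrl-/- to wild type ran from 2.09 for Fabp4 to 15.5 for Bspry, whose wild-type mean was 0.5 FPKM, with a median of 2.71, beside a median of 1.18 over the 1493 genes of the table with wild-type FPKM above 0. Summed over the 16 genes, the samples held 186.9 and 194.9 FPKM in wild type, 147.1 and 142.8 in CrxRip/+, 109.3 and 123.4 in CrxRip/Rip, 115.7 and 103.2 in Crx-/-, and 702.7 and 687.3 in Nrl-/-. Calu alone accounted for 254.0 and 217.9 FPKM of the sums in Nrl-/-.

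**Figure D1:**
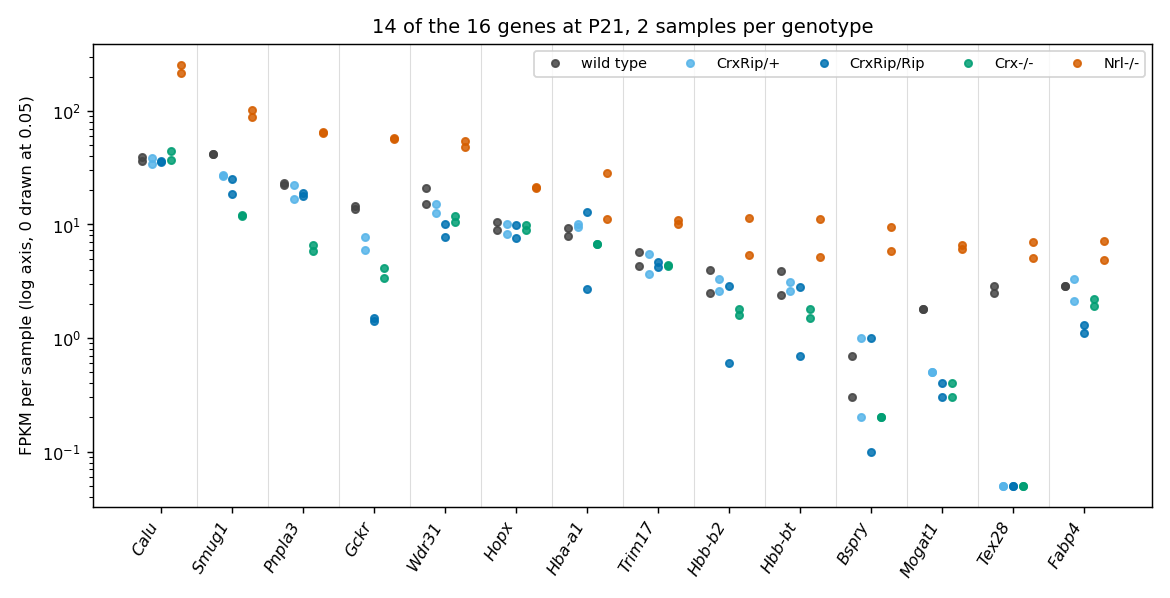
FPKM of 14 of the 16 genes in each P21 sample on a log axis, with genes ordered by their mean in Nrl-/- and 2 points per genotype. The orange Nrl-/- points stand above the points of the other 4 genotypes in every gene drawn but Hba-a1, where 11.1 FPKM in an Nrl-/- sample is below 12.9 in a CrxRip/Rip sample.

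Gckr and Smug1 were below wild type in all 6 samples of the Crx genotypes and highest in Nrl-/-. Gckr, the regulatory protein that inhibits glucokinase and is best known from liver, was at 13.6 and 14.5 FPKM in wild type, 6.0 and 7.8 in CrxRip/+, 1.4 and 1.5 in CrxRip/Rip, 4.1 and 3.4 in Crx-/-, and 57.9 and 56.5 in Nrl-/-. The order of its groups, with no overlap between any pair, was Nrl-/-, wild type, CrxRip/+, Crx-/- and CrxRip/Rip.

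Smug1, a uracil-DNA glycosylase of base excision repair, was at 41.4 and 41.6 FPKM in wild type, 27.3 and 26.9 in CrxRip/+, 25.1 and 18.7 in CrxRip/Rip, 12.2 and 12 in Crx-/-, and 102.4 and 88.3 in Nrl-/-. Here Crx-/- held the lowest level and none of the groups overlapped. Pnpla3, a lipid droplet protein with triglyceride hydrolase activity, was at 23.0 and 22.3 FPKM in wild type, 16.7 and 22.4 in CrxRip/+, 18.0 and 19.0 in CrxRip/Rip, 6.6 and 5.8 in Crx-/-, and 65.0 and 63.5 in Nrl-/-. Pnpla3 was at 27.4% of wild type in Crx-/-, but at 86.3% and 81.7% in the CrxRip genotypes, where 1 CrxRip/+ sample lay between the wild-type samples.

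Mogat1, a monoacylglycerol acyltransferase that builds diacylglycerol, had 1.8 FPKM in both wild-type samples, 0.5 in both CrxRip/+ samples, 0.3 and 0.4 in CrxRip/Rip, 0.4 and 0.3 in Crx-/-, and 6.1 and 6.6 in Nrl-/-. These low values are limited by the rounding of the deposited FPKM to 1 decimal. Of a list of 56 lipid metabolism genes, 12 were in the P21 table, and of the 11 that are not among the 16 genes, 7 were higher in Nrl-/- than in wild type by limma (adjusted p under 0.05 over all genes of the table), 2 were lower and 2 were not called. Their median difference was 1.13 in log2(FPKM + 1), against 0.17 over all genes tested. Over the whole table, 40.4% of genes were higher in Nrl-/- by this test. Of the 7 lipid genes called higher, Abca1, Elovl2, Elovl5, Elovl6, Fabp7 and Ptgds also had means above wild type in each of the 3 Crx genotypes. Their rise was thus not limited to Nrl-/-. Elovl7 was the exception, with a mean of 0.85 FPKM in CrxRip/+ against 0.95 in wild type.

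**Figure D2:**
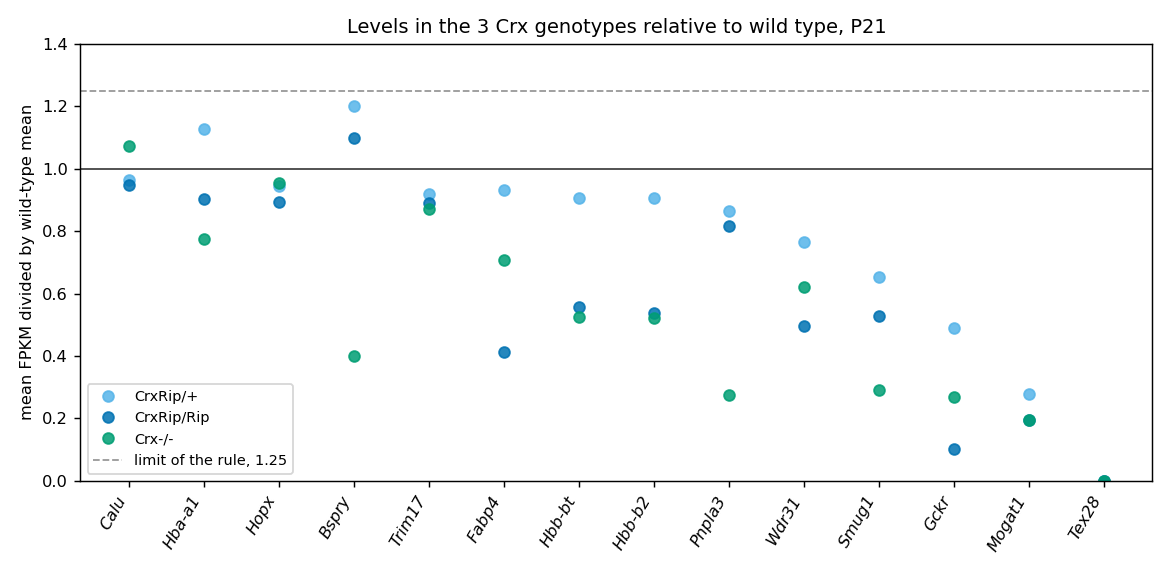
Mean FPKM in CrxRip/+, CrxRip/Rip and Crx-/- divided by the wild-type mean at P21 for 14 of the 16 genes, 1 column per gene, ordered from the highest to the lowest mean of the 3 ratios. Calu, Hopx and Trim17 have all 3 points near 1 and Tex28 has all 3 at 0, with the dashed line marking the limit of 25% above wild type.

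The rule set only an upper limit for the Crx genotypes, and the 16 genes were spread below it. In 6 of the 16, among them Gckr, Smug1, Wdr31, Mogat1 and Tex28, all 6 samples of the 3 Crx genotypes lay below both wild-type samples, against 36.4% of all genes in the table, so the share was near the background. In 4 genes, among them Gckr, Mogat1 and Tex28, each of the 3 means was at or under 50% of wild type. In another 4 (Calu, Hopx, Trim17 and Hba-a1) each of the 3 means was at least 0.75 times wild type. For these counts of 4, the share over all genes in the table was not taken. They therefore describe the set only, and whether they differ from the background was not tested. The median ratio to wild type over the 16 genes was 0.88 in CrxRip/+, 0.55 in CrxRip/Rip and 0.52 in Crx-/-, beside 1.14, 0.88 and 0.96 over the table, where no limit was set.

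Among the genes that held the wild-type level, Calu was the most abundant. Calu encodes calumenin, a calcium-binding protein of the endoplasmic reticulum and secretory pathway. It was at 39.6 and 36.1 FPKM in wild type, 38.9 and 34.0 in CrxRip/+, 35.2 and 36.6 in CrxRip/Rip, 44.1 and 37.1 in Crx-/-, and 254.0 and 217.9 in Nrl-/-. The wild-type samples overlapped with those of each Crx genotype, and the Nrl-/- mean of 235.95 ± 25.5 FPKM (SD, n = 2) was 6.23 times the wild-type mean of 37.85 ± 2.47 (SD, n = 2). Hopx, an atypical homeodomain protein that does not bind DNA, was at 10.6 and 9.0 FPKM in wild type and 21.0 and 21.4 in Nrl-/-, and its 6 Crx mutant samples ran from 7.6 to 10.2. Trim17, a RING-type ubiquitin ligase of neurons, was at 4.3 and 5.7 FPKM in wild type and 10.2 and 11 in Nrl-/-, with 3.7 to 5.5 in the Crx mutant samples. Both Hopx and Trim17 stood close to the 2-fold limit, at ratios of 2.16 and 2.12.

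Bspry was nearly silent outside Nrl-/-. This gene, which encodes a B-box and SPRY domain protein, was at 0.7 and 0.3 FPKM in wild type, 1.0 and 0.2 in CrxRip/+, 0.1 and 1.0 in CrxRip/Rip, 0.2 in both Crx-/- samples, and 9.6 and 5.9 in Nrl-/-. It had the largest ratio of the set, 15.5, and both Nrl-/- samples lay clear of the other 8. That ratio rests on wild-type values rounded to 1 decimal, and it was 25.8 without replicate 1 and 11.1 without replicate 2 of wild type. Bspry met the rule in 7 of the 10 cases in which 1 sample was left out, the fewest of the named genes.

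Bspry and Wdr31 are both among the 16 and lie side by side on chromosome 4, transcribed away from each other, with 9156 bases between the gene models. Coordinates here are those of GENCODE M21 on GRCm38, matched through the RefSeq transcript of each row; the build used by the authors is not given in the sources used here. Bspry spans chr4:62480053-62497298 on the plus strand and Wdr31, a WD repeat protein, spans chr4:62448653-62470896 on the minus strand. At P21 Wdr31 was at 15.1 and 20.9 FPKM in wild type, 15 and 12.6 in CrxRip/+, 7.7 and 10.2 in CrxRip/Rip, 11.8 and 10.6 in Crx-/-, and 48.2 and 53.9 in Nrl-/-. Wdr31 was thus well expressed in every genotype, while its neighbour Bspry was at or under 1.0 FPKM outside Nrl-/-.

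Wdr31 was the only one of the 16 genes in the P2 table, which holds 566 genes. It alone could be read in samples that the rule did not use. That table holds only genes that passed the authors' limits in at least 1 P2 comparison, so a gene in it differed somewhere among the genotypes. By the authors' log2 fold changes, Wdr31 reached the 2-fold limit in Nrl-/- against CrxRip/+ (1.03) and CrxRip/Rip (1.24). It did not against wild type (0.6) or Crx-/- (0.69). Outside Nrl-/- its P2 samples ran from 4.4 to 7.3 FPKM, so the other genotypes did not differ 2-fold. Wdr31 thus entered the table through its Nrl-/- level, and its P2 tests are not independent of that. At P2 Wdr31 was at 7.2 and 7.3 FPKM in wild type, 5.0 and 5.6 in CrxRip/+, 4.9 and 4.4 in CrxRip/Rip, 6.1 and 7.3 in Crx-/-, and 9.4 and 10.2 in Nrl-/-. Both Nrl-/- samples lay above all 8 others, both CrxRip genotypes lay below wild type, and Crx-/- reached the wild-type level in 1 sample. In limma on log2(FPKM + 1), fitted over all P2 genes, Wdr31 rose in Nrl-/- against wild type by 0.39 ± 0.11 (SE, n = 2 per genotype, adjusted p = 0.00842), where 18.9% of genes were called higher.

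The other P2 contrasts followed the same order. By limma, Wdr31 was higher in Nrl-/- than in CrxRip/+ by 0.78 (24% of genes called higher). It was also higher than in CrxRip/Rip by 0.94 (28.3% called higher) and than in Crx-/- by 0.49 (18.9% called higher). These contrasts share the Nrl-/- samples, and those against the CrxRip genotypes are where Wdr31 reached the authors' 2-fold limit. Its Nrl-/- level put Wdr31 in the table, so these differences are a description and test nothing. Against wild type, Wdr31 fell by 0.55 in CrxRip/Rip (limma adjusted p = 0.00431, 21.2% of genes called lower) and by 0.39 in CrxRip/+ (limma adjusted p = 0.0403, 12.7% called lower). In Crx-/- the difference from wild type was -0.10 (limma adjusted p = 0.463, 20.7% called lower). Without replicate 2 of Nrl-/- the rise against wild type was 0.33 and missed the threshold (limma adjusted p = 0.0513), and the call for CrxRip/+ was lost in 7 of 10 alternative settings, with adjusted p up to 0.209. Scaling the P2 samples by the median of ratios moved the median of all genes in Nrl-/- against wild type from -0.76 to -0.04 and the rise of Wdr31 from 0.39 to 1.36.

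**Figure D3:**
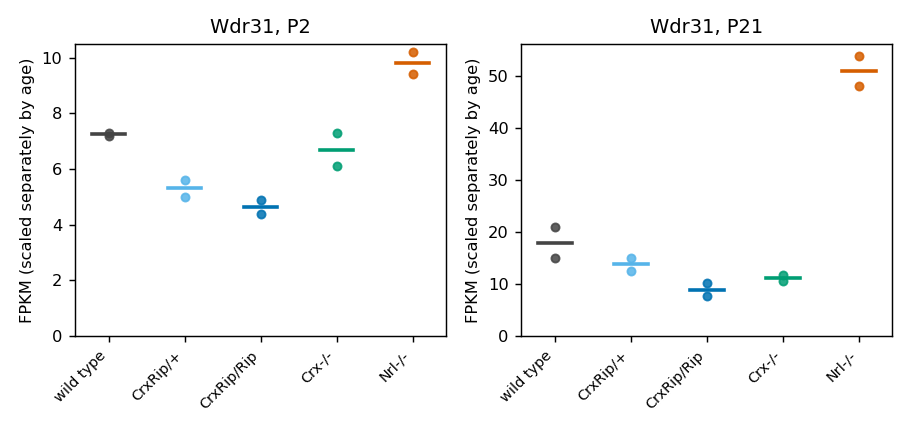
FPKM of Wdr31 in each sample at P2 (left) and P21 (right), 2 points per genotype with a bar at the mean. The Nrl-/- points are highest at both ages, 9.4 and 10.2 FPKM at P2 and 48.2 and 53.9 at P21, and since the tables were scaled separately the axes of the 2 panels are not compared.

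The promoters of 11 of the 16 genes were found in the RefSeq table (GRCm38.p6), as 12 windows of 250 bases before the transcription start. The pair on chromosome 4 is shown because both neighbours are in the set, and Calu and Pnpla3 because they represent the genes that kept and lost the wild-type level in Crx-/-. Sequences run 5′ to 3′ on the strand of the gene, and capitals mark matches on either strand to TAATCC (the core recognised by CRX and OTX2), TAAGCC (another CRX core), TGCTGA (part of the NRL element), AGGTCA (a nuclear receptor site) or CAGATG (an E-box).
Bspry, chr4:62479812-62480061, plus strand: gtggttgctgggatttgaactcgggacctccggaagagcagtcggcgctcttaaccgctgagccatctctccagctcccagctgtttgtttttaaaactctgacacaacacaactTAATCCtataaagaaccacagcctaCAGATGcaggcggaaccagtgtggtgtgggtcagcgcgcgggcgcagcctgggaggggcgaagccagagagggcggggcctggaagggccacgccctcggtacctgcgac
Wdr31, chr4:62470900-62471149, minus strand: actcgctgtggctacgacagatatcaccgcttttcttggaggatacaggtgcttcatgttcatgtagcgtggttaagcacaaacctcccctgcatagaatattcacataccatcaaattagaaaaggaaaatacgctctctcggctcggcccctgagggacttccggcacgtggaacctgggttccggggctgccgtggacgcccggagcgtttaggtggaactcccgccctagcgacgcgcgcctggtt
Calu, chr6:29347856-29348105, plus strand: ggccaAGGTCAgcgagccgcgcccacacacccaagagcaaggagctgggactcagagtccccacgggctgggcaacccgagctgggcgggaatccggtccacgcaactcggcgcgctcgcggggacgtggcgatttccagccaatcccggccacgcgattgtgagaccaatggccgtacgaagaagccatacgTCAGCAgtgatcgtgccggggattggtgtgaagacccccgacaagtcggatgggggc
Pnpla3, chr15:84167566-84167815, plus strand: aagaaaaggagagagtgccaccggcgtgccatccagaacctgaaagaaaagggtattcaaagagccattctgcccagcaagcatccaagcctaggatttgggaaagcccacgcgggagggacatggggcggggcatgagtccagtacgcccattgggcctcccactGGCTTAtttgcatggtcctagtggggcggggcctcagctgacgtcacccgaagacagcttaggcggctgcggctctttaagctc
Bspry held TAATCC 135 bases and CAGATG 110 bases before its start, and it was the only one of the 11 genes searched with TAATCC, in 1 of 12 windows against 6.25% of all 32817 promoters. The Wdr31 window held none of these strings. Calu held AGGTCA at 245 bases and TGCTGA on the reverse strand at 57 bases, and Pnpla3 held TAAGCC on the reverse strand at 84 bases. TGCTGA was in 3 of the 12 windows (Calu, Hopx and Tex28), or 25%, against 16.1% of all promoters. TAAGCC was in 2 windows (16.7% against 8.2%), CAGATG in 2 (16.7% against 14.5%) and AGGTCA in 1 (8.33% against 14%). These are matches of letters in a fixed window and say nothing of binding.

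Calu and Tex28 are each the neighbour of a cone opsin gene. Calu (chr6:29348069-29377110, plus strand) faces Opn1sw, the short-wave opsin, tail to tail, and the gene models overlap by 440 bases, although the listed transcripts of the 2 genes are 541 bases apart. Opn1sw was at 164.5 and 141.0 FPKM in wild type, 1.2 and 0.9 in CrxRip/+, 0.2 in both CrxRip/Rip samples, 2.7 in both Crx-/- samples, and 2501.0 and 2298.6 in Nrl-/-. Opn1sw was thus nearly absent in the 3 Crx genotypes, where Calu stayed between 34.0 and 44.1 FPKM. Both were highest in Nrl-/-, which the numbers of the rule, met by both, largely fix. Ccdc136, a listed cone gene 19198 bases from Calu, was at 26.1 and 26.8 FPKM in wild type, 66.2 and 64.5 in Crx-/- and 265.0 and 270.7 in Nrl-/-.

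Tex28, named for its expression in testis, lies at chrX:74150944-74167838 on the minus strand, tail to tail with the middle-wave opsin gene Opn1mw and 183 bases from it. Tex28 was at 2.5 and 2.9 FPKM in wild type, listed at 0 in all 6 samples of the 3 Crx genotypes, and at 5.1 and 7.0 in Nrl-/-. Opn1mw was at 103.8 and 97.4 FPKM in wild type, between 0.5 and 0.8 in the 6 Crx mutant samples, and at 232.4 and 278.1 in Nrl-/-. Both genes were highest in Nrl-/-, lower in wild type and lowest in the 3 Crx genotypes, with Tex28 at a far lower level. Both met the numbers of the rule, which largely fix their place above wild type in Nrl-/-. The libraries kept strand, but whether the authors' counting used it is not given in the sources used here, so reads running past the end of an opsin gene cannot be told apart from reads of Calu or Tex28.

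Of the 15 genes placed on a reference chromosome, 9 had another gene of the P21 table within 50000 bases, or 60%, against 30.3% of all placed genes of the table. These 9 are not independent places. Bspry and Wdr31 are neighbours of each other and both count, and Hba-a1, Hbb-bt and Fabp4 lie near genes of their own families. Beside the opsins, Ccdc136 and the pair Bspry and Wdr31, the neighbours were other globins, Fabp12 near Fabp4, Alad near Bspry and Wdr31, Parvb near Pnpla3, and H2aw and H2bu2 near Trim17. Fabp12 was at 29.6 and 29.0 FPKM in wild type and 33.9 and 31.3 in Nrl-/-. Alad, a heme synthesis enzyme, had its highest mean in CrxRip/+, 17.2 and 8.8 FPKM, against 9.9 and 8.6 in Nrl-/- and 7.0 and 3.9 in wild type. The neighbours were thus not all highest in Nrl-/-. Parvb, an adhesion adaptor 44806 bases from Pnpla3, was at 6.8 and 6.1 FPKM in wild type, 27.0 and 12.8 in CrxRip/+, 4.4 and 10.6 in CrxRip/Rip, 12.9 and 14.4 in Crx-/-, and 76.5 and 66.5 in Nrl-/-. H2aw, a histone gene whose model overlaps that of Trim17 by 2146 bases on the same strand, was at 31.4 and 31.6 FPKM in wild type, 38.8 and 39.8 in CrxRip/+, 52.5 and 46.5 in CrxRip/Rip, 50.7 and 49.1 in Crx-/-, and 79.6 and 81.6 in Nrl-/-. Parvb and H2aw were therefore above wild type in CrxRip/+ and Crx-/- too, unlike Pnpla3 and Trim17. The listed Trim17 transcript shares no exon bases with H2aw. On the opposite strand, exons of Mogat1, Hopx and Trim17 shared 189, 157 and 189 bases with another transcript, and on the same strand Pnpla3 shared 105 exon bases with Gm49513, so part of the Pnpla3 reads is uncertain even where strand is kept.

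**Figure D4:**
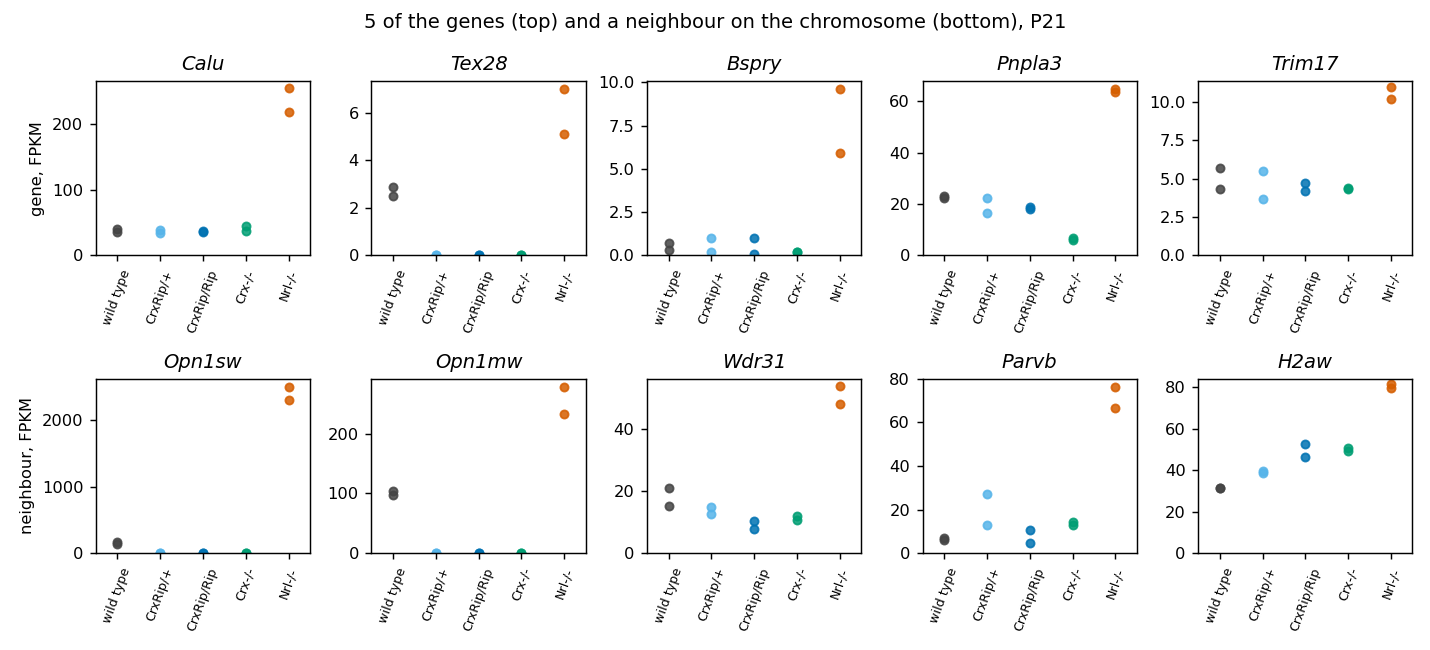
FPKM at P21 of Calu, Tex28, Bspry, Pnpla3 and Trim17 (top row) and of a neighbouring gene of each (bottom row: Opn1sw, Opn1mw, Wdr31, Parvb and H2aw), 2 points per genotype. All 10 genes have their highest points in Nrl-/-, which the numbers of the rule largely fix for all but Parvb and H2aw. Opn1sw and Opn1mw are near 0 in the 3 Crx genotypes and Calu is not. The neighbours not drawn include Alad, whose highest mean is in CrxRip/+, and H2bu2. In H2bu2, 28.4 FPKM in an Nrl-/- sample is below 30.1 in a Crx-/- sample.

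The cone genes give the setting for these levels. Of 25 listed cone phototransduction and identity genes, 24 were in the P21 table, and by limma 17 were higher in Nrl-/- than in wild type, 5 were lower and 2 were not called, with a median difference of 2.49 in log2(FPKM + 1), against 40.4% of all genes called higher and a median of 0.17. The list includes the 5 genes that met the numbers of the rule on these samples. The summed level of the list was 2535.2 and 2414.9 FPKM in wild type and 8284.0 and 8076.6 in Nrl-/-. Among these 5, Arr3, cone arrestin, was at 122.0 and 118.2 FPKM in wild type and 678.0 and 707.8 in Nrl-/-, and Kcne2, a potassium channel subunit, at 25.3 and 23.3 and at 170.6 and 153.5. Whether the 16 genes are expressed in the cone-like cells was not tested, since these are whole-retina samples.

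Fabp4 and the globins are best known outside photoreceptors. Hba-a1, an adult alpha globin of red cells, was at 7.9 and 9.4 FPKM in wild type, 10 and 9.5 in CrxRip/+, 2.7 and 12.9 in CrxRip/Rip, 6.7 in both Crx-/- samples, and 11.1 and 28.3 in Nrl-/-. Its CrxRip/Rip samples spanned the wild-type ones, and the lower Nrl-/- sample was within their range. Hbb-bt, an adult beta globin, was at 2.4 and 3.9 FPKM in wild type, 2.6 and 3.1 in CrxRip/+, 0.7 and 2.8 in CrxRip/Rip, 1.8 and 1.5 in Crx-/-, and 5.2 and 11.1 in Nrl-/-. Hbb-b2 had nearly the same values, 5.4 and 11.4 FPKM in Nrl-/- and 2.5 and 4.0 in wild type. Hbb-b2 was not matched to a reference chromosome and stayed close to Hbb-bt in every sample, so the 2 entries cannot be taken as separate evidence. Reads of near-identical globin copies can be split by counting, so the value of each single one is uncertain.

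In all 3 globin genes the higher Nrl-/- value came from replicate 2, and without that library none of them met the rule. The relatives Hba-a2 (6.8 and 13.6 FPKM in Nrl-/-, 4.3 and 6.9 in wild type) and Hbb-bs (16.4 and 27.6, against 9.0 and 13.4) were also higher in replicate 2 and were not called by limma (adjusted p = 0.26 and 0.222). The 5 listed red cell genes in the table, 3 of them in the set and Hbb-b2 counted beside Hbb-bt, summed to 26.1 and 37.6 FPKM in wild type, 25.1 and 32.1 in CrxRip/+, 8.9 and 44.5 in CrxRip/Rip, 25.8 and 20.2 in Crx-/-, and 44.9 and 92.0 in Nrl-/-. The Nrl-/- samples had the highest sum (replicate 2) and a sum level with a CrxRip/Rip sample (replicate 1). The part of blood left in the tissue was not tested.

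Fabp4, a fatty acid carrier of fat cells and capillary endothelium, was at 2.9 FPKM in both wild-type samples, 2.1 and 3.3 in CrxRip/+, 1.1 and 1.3 in CrxRip/Rip, 2.2 and 1.9 in Crx-/-, and 4.9 and 7.2 in Nrl-/-. It also failed the rule without replicate 2 of Nrl-/-, as did Tex28. Of 17 listed vessel and pericyte genes, 6 were in the table, and by limma 3 (Cdh5, Slco1a4 and Ly6c1) were higher in Nrl-/- than in wild type and 3 were not called, a share near the 40.4% of all genes called higher. Their summed level was 38.4 and 40.0 FPKM in wild type, 49.3 and 48.8 in Nrl-/-, and 47.5 to 69.8 in the 6 Crx mutant samples. Kdr, which is also on the horizontal cell list, set that order, at 32.6 to 51.0 FPKM in the Crx mutant samples against 17.8 and 19.7 in Nrl-/-. Without Kdr, a choice made after its values were seen, the other 5 genes summed to 22.7 and 23.3 FPKM in wild type, 21.5 and 22.2 in CrxRip/+, 15.4 and 14.9 in CrxRip/Rip, 17.7 and 16.8 in Crx-/-, and 31.5 and 29.1 in Nrl-/-. In each of these 5 genes both Nrl-/- samples lay above all 8 others, against 18.6% of all genes in the table. In Kdr they did not. Pecam1 and Cldn5, among the 5, were not called by limma (adjusted p = 0.175 and 0.0753). Fabp4 had the same order of samples, which the choice of genes largely fixes. The part of vessels in the Fabp4 level was not tested.

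**Figure D5:**
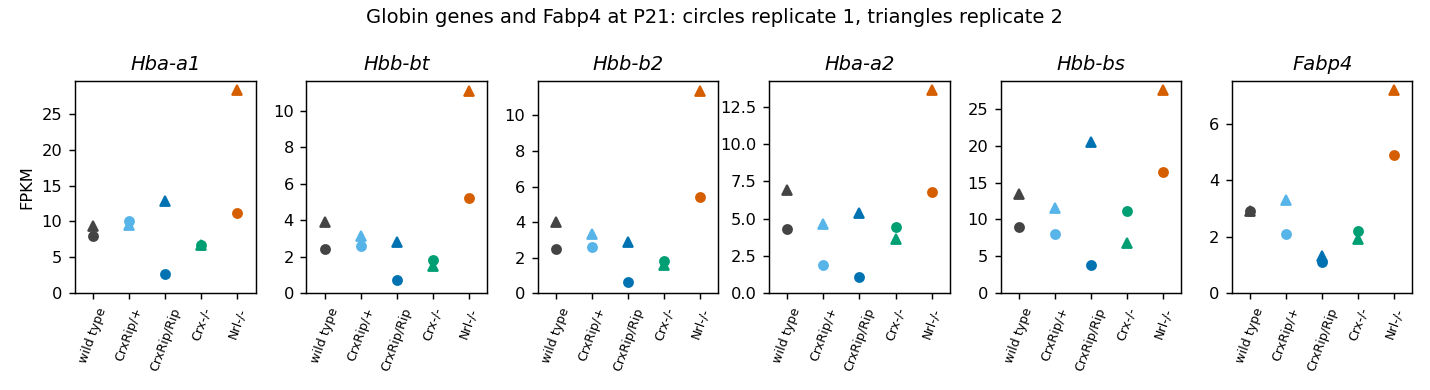
FPKM at P21 of the globin genes Hba-a1, Hbb-bt and Hbb-b2 of the set, their relatives Hba-a2 and Hbb-bs, and Fabp4, with circles for replicate 1 and triangles for replicate 2 of each genotype. In Nrl-/- the triangle is above the circle in all 6 genes, and in CrxRip/Rip the globin circles are low, for Hba-a1 at 2.7 FPKM against 12.9.

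The edges of the rule passed through a continuum. Just inside the 2-fold limit was Fabp4, at a ratio of 2.09, and just outside were Hbb-bs and Cdcp3 (1.96 each), Il18 and Pde4dip (1.94 each). Bspry, with a CrxRip/+ ratio of 1.2 that rests on values of 1.0 and 0.2 FPKM, was nearest to the limit of 25% above wild type. Nearest beyond that limit were L3hypdh and Elk3 (1.32 each) and Raver2 (1.33). Tex28 and Fabp4, at a mean of 6.05 FPKM, were the lowest above the floor of 5, and Bmp15, at 4.4, was next below. Leaving out each P21 sample in turn, 9 of the 16 genes met the rule every time, among them Calu, Smug1, Pnpla3, Gckr, Wdr31, Hopx and Mogat1. In the authors' deposited table, 14 of the 16 passed the adjusted p and 2-fold limits for Nrl-/- against wild type, where 23.7% of genes did, and Fabp4 and Trim17 did not. The choice of genes on the same samples largely fixes this count.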

How the data were processed

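Whole-retina RNA libraries were made by a strand-keeping protocol, per the labels' protocols. The deposited values are FPKM per sample, rounded to 1 decimal, in a P21 table of 1497 genes and a P2 table of 566 genes, per the file headers. The deposited tables also give the authors' adjusted p-values and log2 fold changes. Every gene of both tables passed the authors' limits in at least 1 comparison, so the tables are selected on outcome and the background shares apply to selected genes only. DESeq is named in the submitters' processing notes; the aligner, the counter and the genome build: not given in the sources used here. Read depth is unknown, so no counting interval is given.

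Means of 2 samples chose the 16 genes. Of these, 2 are not reported here singly and count only in sums, medians and counts over the set. Genes, lists and tests were chosen with earlier results of these data known. All genes of a table were fitted with limma 3.58.1 in R 4.3.3 on log2(FPKM + 1), with 5 genotypes and no block or low-value filter, Benjamini-Hochberg adjustment over the whole table and a threshold of 0.05. The fit was tested on simulated data. Fold changes on this scale understate the change of low genes. Current symbols replaced 93 of 1497 older ones at P21, by transcript identifier. The genes named were all those in the P2 table, the 12 highest in Nrl-/-, the 12 with the largest ratio, those on a marker list, the 5 with the lowest and the 5 with the highest ratio in the Crx genotypes, examples at the thresholds, and the cone list; other names were chosen after their values were seen. Alternatives were a pseudocount of 0.1, a 5 FPKM filter, rescaling, a replicate block, a fit of only the genotypes compared, the authors' calls, other limits of the rule and leaving out each sample.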

Additional observations from a re-analysis of the deposited data

How the results depend on the processing

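Depth is unknown, 2 samples per genotype limit every test, and values under 1 FPKM carry 1 decimal. The rule found 16 genes. It found 30 with a floor of 2 FPKM, 9 with a floor of 10, 9 when every Nrl-/- sample had to be 2 times every wild-type sample, 13 (10 shared) after rescaling by the median of ratios, 13 with a limit of 1, and 14 to 21 leaving out 1 sample. With the authors' deposited fold changes, an alternative chosen after seeing the data, it found 23, of which 14 were shared.

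At P21, 1081 genes were called in Nrl-/- against wild type (605 higher, 476 lower), 636 in the authors' deposited calls, 919 to 966 without 1 sample, and 510 higher against 556 lower after rescaling. At P2 the numbers of called genes were as follows. Nrl-/- against wild type had 473 (107 higher, 366 lower), 267 with the 5 FPKM filter and 284 (188 higher, 96 lower) rescaled. CrxRip/+ against wild type had 93, 43 by the authors and 55 to 74 without 1 sample. CrxRip/Rip against wild type had 153, 99 filtered and 131 to 187 without 1 sample. Crx-/- against wild type had 169, 102 filtered, 72 by the authors and 72 to 92 without 1 sample. Nrl-/- had 485 against CrxRip/+ (276 filtered, 308 rescaled), 505 against CrxRip/Rip (287 filtered) and 446 against Crx-/- (255 filtered, 261 rescaled, 209 by the authors). Rescaling divided the P2 samples by factors of 0.595 and 0.570 in Nrl-/- and of 1.06 to 1.22 in the other samples. The filter leaves fewer genes. Why the factors differ, and the cause of the other shifts, was not tested. For Wdr31 at P2, the difference of -0.10 in Crx-/- against wild type reversed to 0.062 when rescaled and ranged from -0.22 to 0.0087 without 1 sample, positive without replicate 1 of Crx-/-.

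The main fit did not pair samples by replicate number. Replicate differences of 20 pairs of genotypes correlated between -0.30 and 0.33, which cannot show whether samples were prepared together. With the replicate block, Wdr31 in Nrl-/- against wild type at P2 stayed at 0.39 (limma adjusted p = 0.00756), and the called genes numbered 481 for Nrl-/-, 101 for CrxRip/+, 155 for CrxRip/Rip and 203 for Crx-/- against wild type at P2 and 1068 for Nrl-/- at P21.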

Other observations

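Below the floor of 5 FPKM, 14 further genes had the same pattern of means at P21 with at least 2 FPKM in Nrl-/-. Pik3ap1, an adaptor of phosphoinositide 3-kinase, was at 0.3 FPKM in both wild-type samples, between 0.2 and 0.4 in the 6 Crx mutant samples, and at 4.1 and 3.4 in Nrl-/-. Spint1, a Kunitz-type inhibitor of serine proteases, was at 0.4 FPKM in both wild-type samples and 3.6 in both Nrl-/- samples. Bmp15, a growth factor best known from oocytes, was at 1.1 FPKM in both wild-type samples, 0 to 0.2 in the Crx mutant samples, and 4.9 and 3.9 in Nrl-/-. En2, a homeodomain factor, was at 0.4 and 0.3 FPKM in wild type, at or under 0.1 in the Crx mutant samples, and at 2.6 and 1.7 in Nrl-/-. These 4 genes were chosen after their values were seen. In each both Nrl-/- samples lay above all 8 others, against 18.6% of all genes in the table. The choice of genes on the same samples largely fixes this count.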
